A study of Mus musculus with 96 samples.

Results

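The genes described here are 34 genes of the p53 pathway, out of 55536 genes in the deposited tables of TPM, a measure of RNA level scaled by transcript length and library total. They were chosen by name and by no cut-off on a measured value, but with earlier results of these data known. Of them, 6 encode p53, its relatives or its regulators, and 6 encode targets that act in cell cycle arrest. A further 12 encode targets that act in apoptosis, 5 in DNA repair and nucleotide supply, and 5 in metabolism and stress responses. RNA was sequenced from primary mouse intestinal organoids of the C57BL/6 strain, which are epithelial cultures grown in a gel, at 12 time points from 24 to 46 h after a 1 h pulse of 0.1 µM dexamethasone, a glucocorticoid used to set circadian clocks to a common phase. Of 96 libraries in the labels, 88 had a column in the tables, 22 for each genotype, and 8 of the genotype and time groups therefore held 1 library. The control organoids were APC+/+;BMAL1+/+. The Bmal1-null organoids were APC+/+;BMAL1-/- and lack BMAL1, the transcription factor that drives the positive limb of the circadian clock. The Apc-min organoids were APCmin/-;BMAL1+/+, and the Apc-min Bmal1-null organoids were APCmin/-;BMAL1-/-. Organoids with mutant Apc came from intestinal adenomas and were grown in EN medium, while Apc wild-type organoids had ENR medium. Apc genotype, adenoma origin and medium therefore cannot be told apart, and "Apc mutation" below stands for the 3 together. Each genotype was represented by 2 organoid lines, and the labels do not say which line a library came from.

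p53, encoded by Trp53, is a transcription factor that is held at a low protein level by the ubiquitin ligase MDM2 and is stabilised after DNA damage, oncogene activity or ribosomal stress. Stabilised p53 binds response elements near its target genes and raises their transcription, and the targets include MDM2 itself, which closes a feedback loop. The targets stop the cell cycle, trigger apoptosis, or support repair, metabolism and antioxidant defence, and in the intestine p53 is best known for the death and arrest of crypt cells after irradiation. APC restrains WNT signalling by promoting the degradation of β-catenin, and its loss opens most intestinal adenomas. The comparisons asked how RNA of these genes differed with Apc genotype, with Bmal1 genotype, and over the sampled day.

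To show what the promoters of the members look like, the RefSeq promoter windows (build GRCm38.p6, 250 bases before to 50 after a gene start) were searched for the p53 consensus response element, without a spacer, allowing mismatches. The element reads the same on both strands. Windows were found for 26 of 34 members, 35 windows in all among 32851. Matches with at most 1 mismatch occurred in 29 windows of the whole table (0.0883%) and in those of 2 members, Ccng1 and Cdkn1a. With at most 2 mismatches, 262 windows (0.798%) and 4 members matched, adding Ckap2 and Trp73. With at most 3, 2067 windows (6.29%) and 11 members matched, in 12 of their 35 windows (34.3%). Of the 11, 6 have a match that lies before the gene start both in RefSeq and in the deposited annotation, and these 6 are printed, with the matched 20 bases in capitals and up to 15 bases on each side. They lie at chr11:40755447-40755496 (Ccng1, minus strand), chr17:29090913-29090962 (Cdkn1a, plus), chr8:22185988-22186037 (Ckap2, minus), chr7:45467075-45467124 (Bax, minus), chr6:67037617-67037657 (Gadd45a, minus) and chr11:69580269-69580318 (Trp53, plus). The matches of Trp73, Bbc3, Aen, Polk and Sesn1 precede a RefSeq start that lies inside the gene as the deposited annotation draws it.
Ccng1: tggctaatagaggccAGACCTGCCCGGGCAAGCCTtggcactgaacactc
Cdkn1a: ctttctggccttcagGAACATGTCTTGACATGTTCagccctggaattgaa
Ckap2: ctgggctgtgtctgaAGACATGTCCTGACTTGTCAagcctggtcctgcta
Bax: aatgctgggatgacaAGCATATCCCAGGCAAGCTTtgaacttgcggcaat
Gadd45a: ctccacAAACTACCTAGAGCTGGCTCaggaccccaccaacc
Trp53: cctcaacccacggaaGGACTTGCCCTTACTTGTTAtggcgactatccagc
These matches describe letters in a short window and are neither binding sites nor causes of what follows. In the Apc comparisons below, Ccng1, Ckap2, Bax and Trp53 were higher in mutant organoids in both Bmal1 backgrounds, Gadd45a was lower in both, and Cdkn1a differed in opposite directions between sets of libraries.

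The same windows were searched for CACGTG, the core E-box that the CLOCK and BMAL1 complex is known to bind, which is also its own reverse complement. It was present in 2349 windows (7.15%) and in 7 of the 35 member windows, those of Aen, Bax, Bbc3, Eda2r, Fas, Gdf15 and Trp53. Bax and Fas are printed because their match lies before the gene start in RefSeq and in the deposited annotation. The E-box is in capitals, at chr7:45466899-45466922 (Bax, minus strand) and chr19:34290534-34290569 (Fas, plus).
Bax: gcgagcgatgatgatCACGTGact
Fas: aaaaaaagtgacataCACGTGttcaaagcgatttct
With Bmal1 loss in the Apc-min background, Fas and Gdf15 were called higher and Bbc3 lower, against 24.6% and 35.7% of all genes. Aen, Bax, Eda2r and Trp53 were not called. In Apc wild-type organoids none of the 7 was called with Bmal1 loss.

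Libraries had 28.8 M to 48.1 M uniquely mapped reads, and the median share of reads too short to map was 6.14% for control, 5.45% for Bmal1-null, 1.15% for Apc-min and 1.09% for Apc-min Bmal1-null libraries. Arntl, the gene of BMAL1, averaged 14.9, 8.67, 11.1 and 4.86 TPM in these 4 genotypes. Its RNA does not show which exons are deleted. At 28 h, 1 Apc-min and 1 Apc-min Bmal1-null library went against their Bmal1 label. On an axis over 500 genes that places the Apc-min libraries near 0 and the Apc-min Bmal1-null libraries near 1, the Apc-min library was at 1.02 with 4.09 TPM of Arntl, and the Apc-min Bmal1-null library was at -0.17 with 14.7 TPM. Every other library of these genotypes lay between -0.18 and 0.09 or between 0.999 and 1.098. Main counts of called members that rest on these genotypes are therefore given with and without this pair, except those of slopes in Apc-min organoids. In Bmal1-null and Apc-min Bmal1-null organoids, libraries also fell into 2 sets by their number. Xist was at 1 TPM or more in all 11 and 10 higher-numbered libraries of these genotypes and in none of the others. It therefore did not separate the sets of control or Apc-min organoids. Within the higher-numbered set Xist went with Bmal1 genotype, so fits of Bmal1 loss in that set cannot tell the 2 apart. The sets of lower- and higher-numbered libraries, 44 each, are used below as stand-ins for the organoid lines, which the labels do not state. Epithelial markers were present throughout (7 of 7 at a mean of 1 TPM or more in each genotype). Of 6 fibroblast genes, 1 (Vim) had a mean of 1 TPM or more, and their sum was 0.58 to 17.4 TPM. The 6 immune genes summed to 0.12 to 18.8 TPM, with 2 at that mean in control and Bmal1-null organoids (Itgam and Lyz2), Lyz2 alone in Apc-min and none in Apc-min Bmal1-null organoids, and the leukocyte gene Ptprc was near 0.

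Apc mutation was accompanied by higher RNA of most p53 pathway genes, and in particular of every apoptosis member, whereas Cdkn1a, which encodes the arrest factor p21, was higher in 1 set of Apc-min libraries and lower in the other. A call below means an adjusted p under 0.05 in a limma fit on log2(TPM + 1) over all genes, with Benjamini-Hochberg adjustment. Differences are in log2(TPM + 1), mutant minus wild type, with their standard error, and they understate the change of low genes. In Bmal1 wild-type organoids 28 of the 33 tested members were higher and 3 were lower, against 50.5% and 31.1% of all genes tested. At least 2-fold differences were called for 20 members upward and 3 downward, against 12.1% and 12.4% of all genes. The median difference of the members was 1.28, and that of all genes was 0.17. In Bmal1-null organoids 26 members were higher and 6 lower, against 45.7% and 38.8% of genes, 19 of them at least 2-fold higher and 2 at least 2-fold lower, against 11.6% and 14.8%. The median was 1.22 against 0.07 over all genes. Without the pair at 28 h the calls were again 28 and 3, where all genes had 6922 and 4218. In Bmal1-null organoids they were again 26 and 6, where all genes had 6044 and 5345. In bulk RNA, a change in the number of cells of a type and a change in RNA per cell cannot be told apart.

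Without any model, the TPM values of 22 members did not overlap between control and Apc-min organoids in the upward direction and those of 3 members in the downward direction, against 15.3% and 12.9% of genes. In the Bmal1-null pair of genotypes, 19 and 3 members did not overlap, against 15.1% and 15.3%. Without the pair of libraries at 28 h the counts were again 22 and 3, against 17.4% and 13.4%, and 19 and 3, against 17.2% and 19.2%. Treating the mean of each library set as the unit, in place of the libraries, left 25 higher and 3 lower calls in Bmal1 wild-type organoids, where all genes had 3288 and 2545, and 26 and 5 in Bmal1-null organoids, where all genes had 5652 and 4813. The balance over all genes moved with scaling: under median-of-ratios scaling the median of all genes in Bmal1 wild-type organoids went from 0.17 to 0.01, and the share of calls that were higher went from 61.8% to 50.4%. The members then had 25 higher and 4 lower calls, with a median of 1.11. With a gene length slope as a covariate, the higher share was 51.4% in Bmal1 wild-type organoids. In Bmal1-null organoids that covariate took it from 54.1% to 43.8% and the median of all genes from 0.07 to -0.12.

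**Figure D1:**
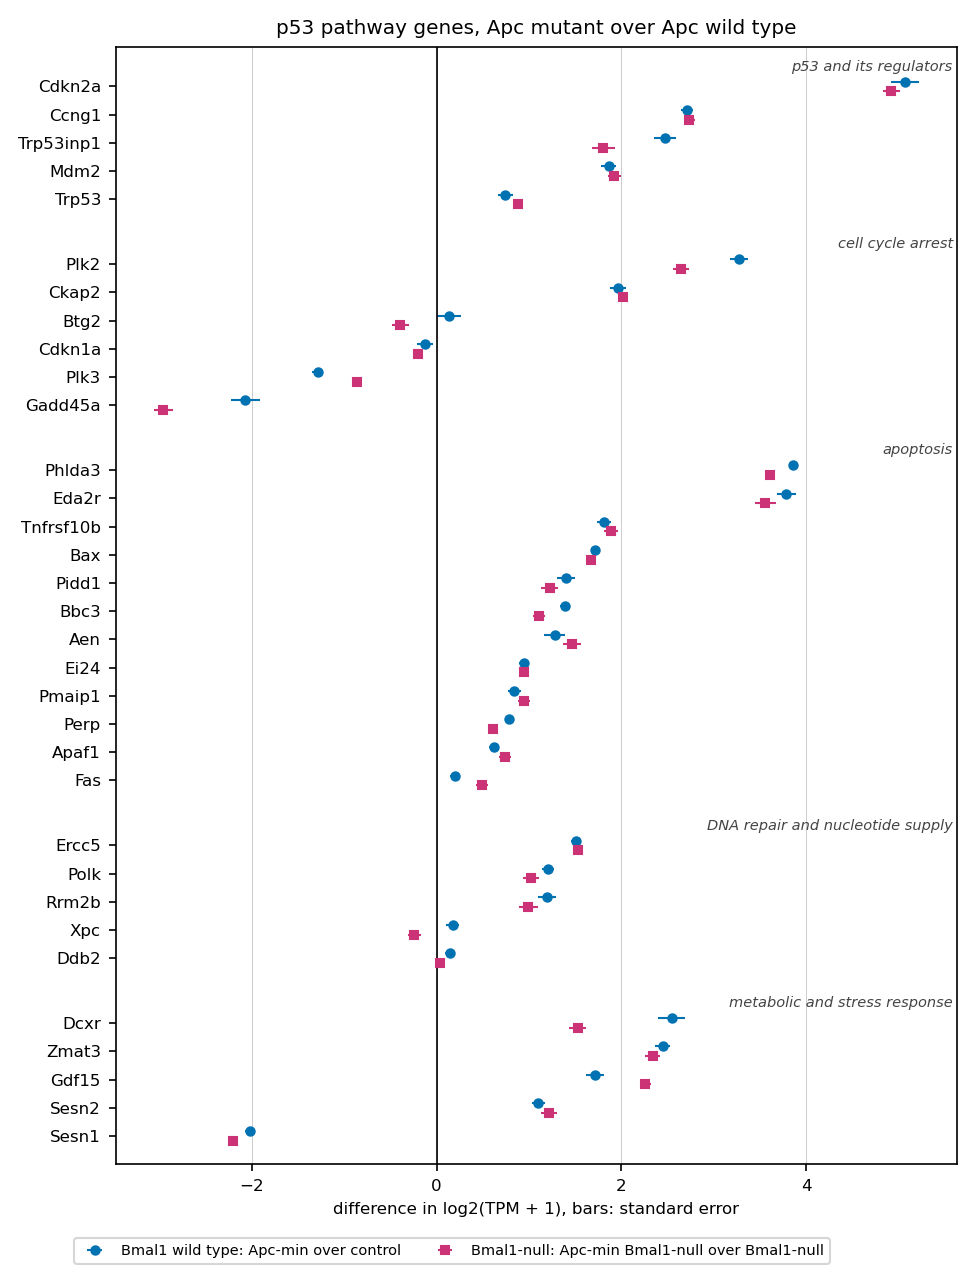
Difference in log2(TPM + 1) between Apc mutant and Apc wild-type organoids (x axis) for the 33 tested p53 pathway genes (y axis), grouped by role. Blue circles are Apc-min over control organoids, magenta squares are Apc-min Bmal1-null over Bmal1-null organoids, and bars are standard errors from the fit. All 12 apoptosis genes lie to the right of 0 in both backgrounds, while the 6 arrest genes spread from -2.96 (Gadd45a) to 3.27 (Plk2).

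Among p53 and its regulators, all 5 tested genes were higher in both backgrounds. Trp53 was 105 to 153 TPM in control organoids (median 138) and 134 to 293 TPM in Apc-min organoids (median 249), a difference of 0.75 ± 0.08 (adjusted p = 7.14e-10). In Bmal1-null organoids it was 109 to 155 TPM (median 134), and in Apc-min Bmal1-null organoids 147 to 286 TPM (median 259), a difference of 0.88 ± 0.06 (adjusted p = 5.23e-17). The ranges overlapped in both backgrounds, in each through the lowest mutant library alone. Mdm2, which encodes the ligase that degrades p53, had a median of 35.9 TPM in control (23.3 to 44.8) and 130 TPM in Apc-min organoids (93.8 to 173), a difference of 1.86 ± 0.08 (adjusted p = 3.79e-21). In the Bmal1-null pair its medians were 36.6 TPM (26.2 to 42.0) and 140 TPM (73.1 to 170), and the difference was 1.92 ± 0.07 (adjusted p = 7.56e-24). Mdm2 did not overlap between Apc genotypes in either background.

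Cdkn2a, whose alternative reading frame product ARF inhibits MDM2 and whose other product p16 inhibits CDK4 and CDK6, had the largest difference of the regulators. It was 0.70 to 2.70 TPM in control organoids and 57.6 to 169 TPM in Apc-min organoids, with medians of 1.56 and 69.6 TPM and a difference of 5.07 ± 0.15. In Bmal1-null organoids it was 1.00 to 3.58 TPM, against 67.8 to 136 TPM with mutant Apc, a difference of 4.92 ± 0.09. The gene-level value sums the transcripts of both products. Ccng1, which encodes cyclin G1, a p53 target that acts on MDM2 through a phosphatase, went from a median of 58.5 to 383 TPM (2.71 ± 0.07) in Bmal1 wild-type and from 56.97 to 382 TPM (2.73 ± 0.06) in Bmal1-null organoids. Trp53inp1, whose product aids p53 phosphorylation and autophagy, went from a median of 9.68 to 60.5 TPM (2.47 ± 0.12) and from 10.1 to 35.1 TPM (1.80 ± 0.12). Trp73, a p53 relative, stayed between 0 and 0.16 TPM in every library and was not tested.

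**Figure D2:**
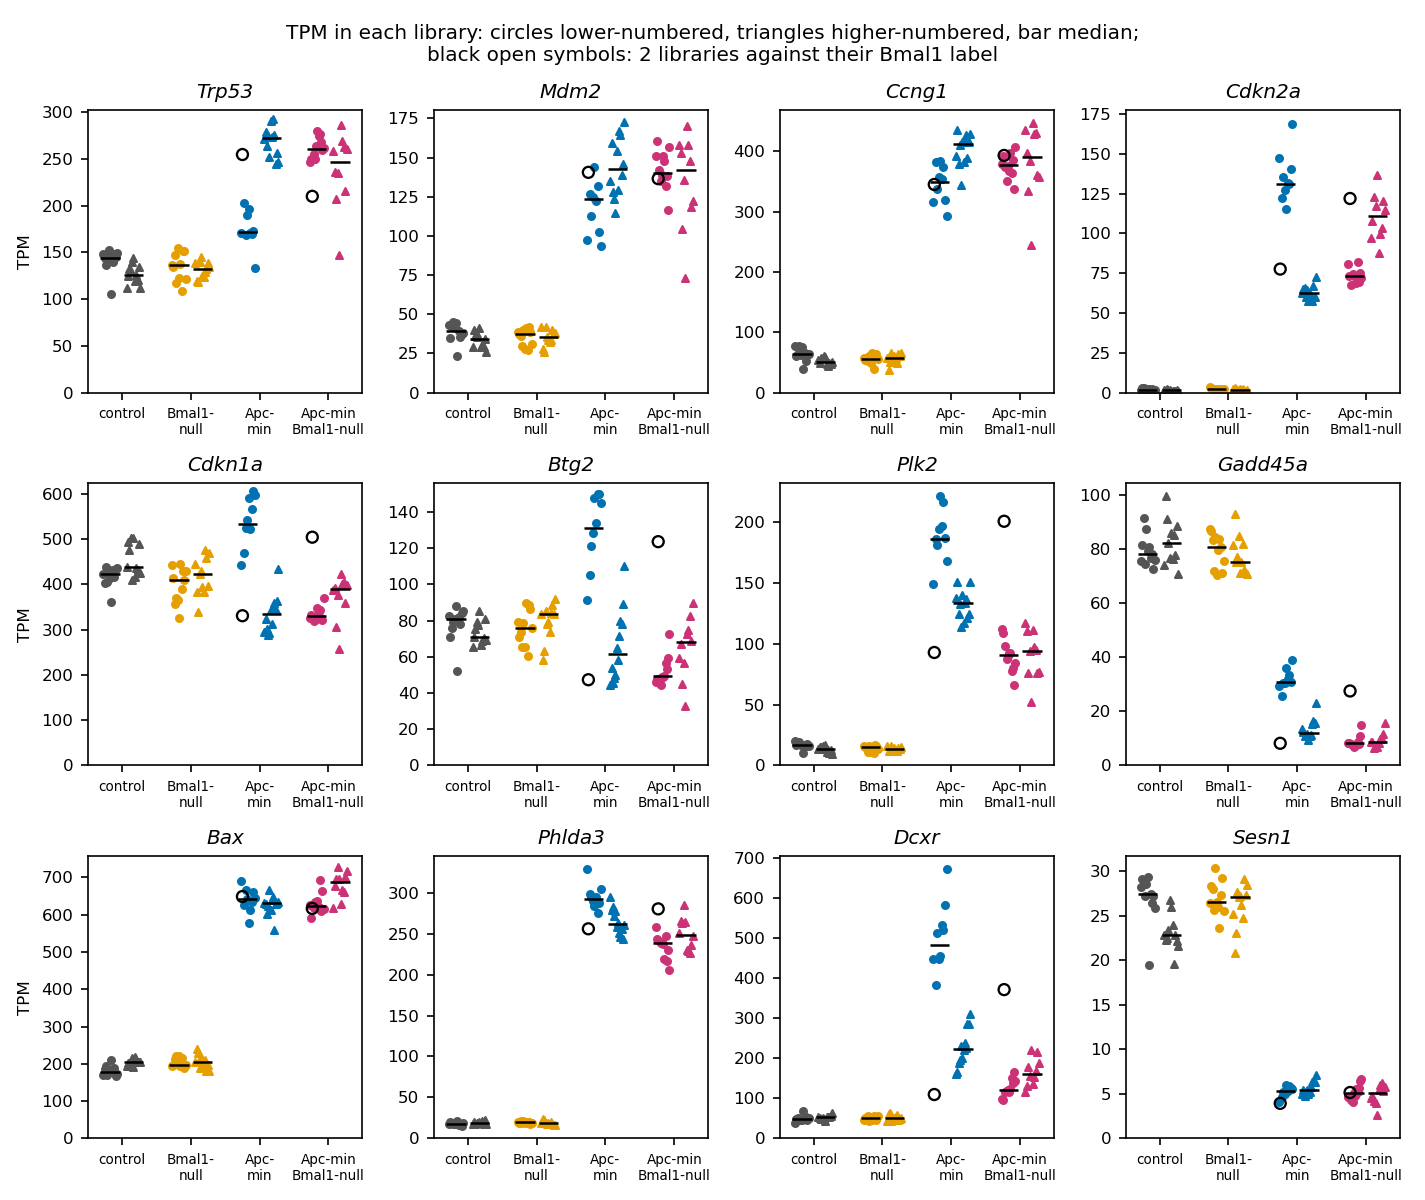
TPM (y axis, from 0, a separate scale in each panel) of 12 p53 pathway genes in each of 88 libraries, by genotype (x axis). Circles are lower-numbered and triangles higher-numbered libraries, bars are medians of a set, and black open symbols mark the 2 libraries at 28 h that went against their Bmal1 label. Mdm2, Ccng1, Cdkn2a, Bax and Phlda3 separate the Apc genotypes without overlap, Cdkn1a does not, and the circles and triangles of Apc-min organoids lie apart for Trp53, Cdkn2a, Cdkn1a, Gadd45a and Dcxr when the open symbols are left out.

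The arrest targets moved in both directions. In Bmal1 wild-type organoids 2 of 6 were higher (Plk2 and Ckap2) and 2 were lower (Gadd45a and Plk3), and in Bmal1-null organoids the same pairs were called and Cdkn1a and Btg2 were lower as well. Cdkn1a encodes p21, which inhibits cyclin-dependent kinases and is the best known mediator of p53-dependent G1 arrest. Its level was high everywhere, 360 to 502 TPM in control (median 431), 288 to 606 TPM in Apc-min (median 361), 326 to 475 TPM in Bmal1-null (median 412) and 257 to 504 TPM in Apc-min Bmal1-null organoids (median 345), and all genotypes overlapped. The difference was -0.12 ± 0.09 (adjusted p = 0.197) in Bmal1 wild-type and -0.20 ± 0.05 (adjusted p = 0.000741) in Bmal1-null organoids. The first value combined opposite ones: it was 0.36 (adjusted p = 0.00026) within the lower-numbered and -0.47 (adjusted p = 5.88e-06) within the higher-numbered libraries, and -0.29 (adjusted p = 0.00664) with median-of-ratios scaling. Btg2, an antiproliferative cofactor of mRNA deadenylation, had medians of 77.8 TPM in control and 84.2 TPM in Apc-min organoids, a difference of 0.14 ± 0.13 (adjusted p = 0.34) whose sign turned to -0.03 with median-of-ratios scaling and to -0.24 in the higher-numbered libraries. In Bmal1-null organoids the Btg2 medians were 78.9 and 56.5 TPM, and the difference was -0.39 ± 0.10 (adjusted p = 0.000342).

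Plk2, a polo-like kinase induced by p53 and linked to checkpoint control, had the largest rise of the arrest targets. It was 9.71 to 19.7 TPM in control and 92.8 to 221 TPM in Apc-min organoids (3.27 ± 0.10), and 10.3 to 16.9 against 52.4 to 201 TPM in the Bmal1-null pair (2.65 ± 0.09). Ckap2, a spindle protein gene that p53 can induce and that is also expressed in mitosis, went from 17.8 to 32.0 TPM in control up to 65.5 to 134 TPM in Apc-min organoids (1.96 ± 0.09). Its difference was 2.02 ± 0.04 in the Bmal1-null background. Neither gene overlapped between Apc genotypes.

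Gadd45a, a growth arrest and damage response gene, fell with no overlap, from 70.8 to 99.8 TPM in control to 8.19 to 38.9 TPM in Apc-min organoids (-2.07 ± 0.16), and from 70.5 to 93.1 TPM down to 6.49 to 27.5 TPM in the Bmal1-null pair (-2.96 ± 0.10). Plk3, a stress-responsive polo-like kinase, fell from 26.7 to 52.2 TPM in control to 12.7 to 20.04 TPM in Apc-min organoids (-1.29 ± 0.06), with -0.86 ± 0.05 in the Bmal1-null background. A non-coding gene, E230016M11Rik, overlaps Gadd45a, and it averaged 1.36 TPM.

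All 12 apoptosis targets were higher with mutant Apc in both backgrounds, 7 of them at least 2-fold in Bmal1 wild-type organoids. The summed TPM of the 12 was 568 to 632 in control, 572 to 623 in Bmal1-null, 1616 to 1759 in Apc-min organoids, and 1505 to 1752 when both genes were mutant, so the Apc genotypes did not overlap. Phlda3, a p53 target that restrains AKT at the membrane, had the largest difference of the 12. Its level was 15.2 to 21.9 TPM in control and 243 to 329 TPM in Apc-min organoids (3.86 ± 0.04), and 16.1 to 23.3 against 206 to 285 TPM in the Bmal1-null pair (3.61 ± 0.03).

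Members of the TNF receptor family rose by different amounts. Eda2r, which encodes the receptor for the ectodysplasin A2 isoform, was 0.62 to 2.42 TPM in control and 18.6 to 40.6 TPM in Apc-min organoids (3.78 ± 0.10), and its difference was 3.56 ± 0.11 in the Bmal1-null background. Tnfrsf10b, the mouse TRAIL death receptor, went from a median of 8.56 to 32.7 TPM (1.81 ± 0.07), with 1.89 ± 0.08 in the Bmal1-null background. Fas, the receptor of FAS ligand, was low and overlapped between genotypes: 3.01 to 5.25 TPM in control and 3.73 to 6.21 TPM in Apc-min organoids, with 0.20 ± 0.06 (adjusted p = 0.00169) and 0.50 ± 0.07 (adjusted p = 1.2e-08) in the 2 backgrounds. In Bmal1 wild-type organoids Fas was called in 1 of the 2 library sets, with means of 4.16 and 4.27 TPM in the lower-numbered set.

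Of the mitochondrial arm, Bax, the pore-forming effector, was 167 to 218 TPM in control and 559 to 690 TPM in Apc-min organoids (1.71 ± 0.03). In the Bmal1-null pair it was 181 to 239 against 592 to 729 TPM (1.67 ± 0.03), again without overlap. The BH3-only activators Bbc3 (PUMA) and Pmaip1 (NOXA) had medians of 13.5 and 24.1 TPM in control and 37.7 and 42.6 TPM in Apc-min organoids, with differences of 1.39 ± 0.06 and 0.84 ± 0.07. Their differences in the Bmal1-null background were 1.11 ± 0.06 and 0.95 ± 0.06. Apaf1, the scaffold of the apoptosome, rose by 0.62 ± 0.06 and 0.74 ± 0.06, and Pidd1, which activates caspase-2, by 1.40 ± 0.09 and 1.23 ± 0.09. The nuclease gene Aen rose by 1.28 ± 0.11 and 1.46 ± 0.10, Ei24, an endoplasmic reticulum protein gene, by 0.95 ± 0.05 in each background, and Perp, which encodes a desmosomal membrane protein, by 0.78 ± 0.04 and 0.61 ± 0.03. Every apoptosis member except Fas therefore rose by more than 0.58 (1.5-fold) in both backgrounds.

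The repair members divided into 3 with differences near or above 1 and 2 near 0. Ercc5, the XPG endonuclease of nucleotide excision repair, was 6.19 to 9.59 TPM in control and 20.2 to 30.5 TPM in Apc-min organoids (1.51 ± 0.05), with 1.53 ± 0.05 in the Bmal1-null background. Polk, a translesion polymerase, went from a median of 5.31 to 13.8 TPM (1.21 ± 0.07 and 1.02 ± 0.08), and Rrm2b, the p53-inducible subunit of ribonucleotide reductase, from 1.00 to 4.18 TPM up to 4.65 to 10.7 TPM (1.19 ± 0.10 and 0.99 ± 0.10). The lesion recognition genes Xpc and Ddb2 stayed within overlapping ranges. Xpc had medians of 9.80 and 11.1 TPM in control and Apc-min organoids (0.17 ± 0.07, adjusted p = 0.0205) and 9.46 and 7.97 TPM in the Bmal1-null pair (-0.24 ± 0.07, adjusted p = 0.00206), and its first difference turned to 0.00 on the negative side with the gene length covariate. Ddb2 had medians of 11.9 and 13.5 TPM (0.15 ± 0.05, adjusted p = 0.0125), a sign that turned with median-of-ratios scaling, with the gene length covariate and in the lower-numbered libraries, and in the Bmal1-null pair 12.3 and 12.9 TPM (0.03 ± 0.05, adjusted p = 0.503), where either scaling turned the sign. Rrm2b contains the pseudogene Gm3362 (0.62 TPM on average), and Ddb2 overlaps Acp2 on the other strand (10.8 TPM), so their values are less certain.

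Of the metabolic and stress members, 4 rose and Sesn1 fell in both backgrounds. Dcxr, which encodes a sugar and carbonyl reductase, was 37.7 to 68.4 TPM in control and 109 to 674 TPM in Apc-min organoids (2.54 ± 0.15), against 42.97 to 64.3 and 95.7 to 372 TPM in the Bmal1-null pair (1.53 ± 0.09). Zmat3, an RNA-binding protein gene that p53 induces, rose from a median of 7.60 to 46.6 TPM (2.45 ± 0.08), with 2.34 ± 0.09 in the Bmal1-null background. Gdf15, a secreted stress cytokine gene, rose from 22.1 to 73.02 TPM (1.72 ± 0.10) and, in the Bmal1-null pair, from 20.2 to 98.4 TPM (2.26 ± 0.06). The sestrins, which restrain mTORC1, differed from each other: Sesn2 rose by 1.103 ± 0.07 and 1.22 ± 0.09, whereas Sesn1 fell from 19.4 to 29.3 TPM in control to 3.93 to 7.07 TPM in Apc-min organoids (-2.02 ± 0.06) and from 20.9 to 30.3 down to 2.62 to 6.66 TPM in the Bmal1-null pair (-2.20 ± 0.06). Sesn1, Gadd45a and Plk3 were the only members whose mutant values all lay below the wild-type values in both backgrounds.

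Other genes of the pathway were read from lists that were also chosen with earlier results of these data known. Their counts are to be set against the shares of all genes given above. These were 50.5% higher and 31.1% lower in Bmal1 wild-type and 45.7% and 38.8% in Bmal1-null organoids. Of 29 tested p53 targets outside the members (of 32 listed), 22 were higher and 4 lower in Bmal1 wild-type organoids, 15 and 3 of them at least 2-fold, with a median of 1.08. In Bmal1-null organoids 23 were higher and 6 lower, with a median of 1.15. The largest rises in Bmal1 wild-type organoids were of Ak1 (3.62), Ephx1 (3.43) and Ptpn14 (3.42), and the largest fall was of the inflammatory caspase gene Casp1 (-4.11). Of 20 tested p53 regulators outside the members, 13 and 2 were called in Bmal1 wild-type and 12 and 4 in Bmal1-null organoids, with medians of 0.23 and 0.28. Of 20 tested caspases and BCL2 family genes outside the members, 9 were higher and 5 lower, and 9 and 6 in Bmal1-null organoids, with medians of 0.10 and 0.04, so this list was near or below the share of all genes in each direction. Cyclins, CDKs and CDK inhibitors outside the members had 13 higher and 3 lower calls of 19, and 13 and 6 in Bmal1-null organoids, with Ccnd1, which encodes cyclin D1, at 2.69 in Bmal1 wild-type organoids.

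Markers of cell types and of proliferation differed with Apc genotype as well. All 18 proliferation genes were higher in both backgrounds, with medians of 0.58 and 0.98, and their summed level was 1190 to 1584 TPM in control, 1194 to 1559 TPM in Bmal1-null, 1021 to 2980 TPM in Apc-min organoids, and 1887 to 3055 TPM when both genes were mutant. The 6 secretory and enterocyte genes summed to 3561 to 4433 TPM in control and 3837 to 4918 TPM in Bmal1-null organoids, but to 30.8 to 163 and 62.8 to 201 TPM with mutant Apc, where 2 and 3 of the 6 still had a mean of 1 TPM or more. The 4 crypt stem cell genes summed to 557 to 1153 TPM in control and 89.2 to 255 TPM in Apc-min organoids. They did not move together: 3 were called lower and 1 higher in each Bmal1 background. The endothelial cadherin gene Cdh5 was 0 to 0.01 TPM in control and 1.79 to 19.6 TPM in Apc-min organoids. The part of these shifts in the differences of the p53 pathway genes was not tested.

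Loss of Bmal1 in Apc wild-type organoids gave no call among the 33 tested members, against 2.09% of all genes called higher and 1.47% lower by limma. At an unadjusted p under 0.05 there were 4 members. Trp53 differed by -0.01 ± 0.04 (adjusted p = 1) between Bmal1-null and control organoids, Mdm2 by -0.02 ± 0.07 (adjusted p = 1) and Cdkn1a by -0.09 ± 0.04 (adjusted p = 0.37). The sign of both the Trp53 and the Mdm2 difference turned in the higher-numbered libraries and without 34 h, and that of Mdm2 also with the gene length covariate. No member reached 2-fold, against 0.079% of genes higher and 0.0869% lower, and none was free of overlap, against 0.103% and 0.0474%. The largest difference was that of Cdkn2a, 0.22 ± 0.09 (adjusted p = 0.277), on medians of 1.56 and 2.10 TPM. Within the lower-numbered libraries 1 member was called higher and 3 lower, where all genes had 225 and 472. Within the higher-numbered libraries no member was called, where all genes had 159 and 90. Nr1d1, a direct clock target used as a check, had a mean of 17.01 TPM (control) and 2.39 TPM (Bmal1-null).

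In Apc-min organoids, loss of Bmal1 was accompanied by lower RNA of 10 members and higher RNA of 3, against 35.7% of genes lower and 24.6% higher. The lower members were Trp53inp1, Btg2, Gadd45a, Plk2, Bbc3, Perp, Phlda3, Xpc, Polk and Dcxr, and the higher ones were Plk3, Fas and Gdf15. No difference reached 2-fold, against 1.92% of genes higher and 4.5% lower. No member was free of overlap, as in 0.0% of genes, or without the pair of libraries at 28 h, where 1.94% of genes lay all higher and 5.21% all lower. Without the pair the counts were 3 higher and 11 lower, where all genes had 3447 and 5068. With the mean of each library set as the unit none was called, where all genes had 136 higher and 200 lower calls. By limma 4 members had an unadjusted p under 0.05 in that fit. The calls above take libraries of the same set as replicates. Under median-of-ratios scaling 11 members were called higher, where all genes had 4551 higher and 3971 lower calls. The share of the calls among all genes that were higher went from 40.8% to 53.4%.

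Dcxr had the largest difference, -0.97 ± 0.18 (adjusted p = 3.44e-05), on medians of 285 TPM in Apc-min (109 to 674) and 141 TPM (95.7 to 372) with Bmal1 lost as well. Gadd45a differed by -0.88 ± 0.18 (adjusted p = 8.66e-05), on medians of 16.2 TPM (8.19 to 38.9) and 8.35 TPM (6.49 to 27.5). Plk2 went from a median of 144 to 92.4 TPM (-0.68 ± 0.11, adjusted p = 3.36e-06) and Trp53inp1 from 60.5 to 35.1 TPM (-0.63 ± 0.11, adjusted p = 8.64e-06). The other lower members differed by -0.44 (Btg2) to -0.18 (Polk), among them Perp at -0.23 ± 0.04, Phlda3 at -0.20 ± 0.03 and Bbc3 at -0.31 ± 0.06. The higher members were Gdf15 at 0.44 ± 0.08, Plk3 at 0.33 ± 0.05 and Fas at 0.27 ± 0.07. Trp53 differed by 0.13 ± 0.09 (adjusted p = 0.197), Mdm2 by 0.07 ± 0.07 (adjusted p = 0.424) and Cdkn1a by -0.15 ± 0.09 (adjusted p = 0.158).

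The uncalled differences of Trp53 and Cdkn1a were made up of opposite values in the 2 sets of libraries. Without the pair at 28 h, Trp53 in Apc-min organoids was 134 to 203 TPM in 9 lower-numbered and 244 to 293 TPM in 12 higher-numbered libraries. Cdkn1a was the reverse, 442 to 606 TPM in the lower- and 288 to 434 TPM in the higher-numbered libraries. In all, 7 of 34 members did not overlap between the sets of Apc-min organoids, near the share of all genes, 22.4%. That share is over genes that averaged 1 TPM or more, while the 34 include Trp73, which did not. The lower-numbered libraries were higher for Cdkn2a (mean 135 against 62.8 TPM), Cdkn1a (540 against 334), Gadd45a (31.9 against 13.5), Perp (350 against 301) and Dcxr (507 against 226), and lower for Trp53 (175 against 268) and Aen (56.5 against 84.2). In Apc-min Bmal1-null organoids Cdkn2a alone did not overlap, with means of 73.6 TPM in the lower- and 111 TPM in the higher-numbered libraries, against 1.14% of genes. No member separated the sets in control or Bmal1-null organoids (0.509% and 0.127% of genes).

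Fitted within each set, the difference between Apc-min Bmal1-null and Apc-min organoids was called with the same sign in both sets for 8 members, Trp53inp1, Plk2, Plk3, Gadd45a, Perp, Phlda3, Xpc and Dcxr, against 27.5% of genes. Trp53inp1 was at -0.63 in each set and Plk3 at 0.23 and 0.42, while Dcxr was at -1.58 in the lower- and -0.40 in the higher-numbered libraries. For 6 members both sets were called with opposite signs, against 5.61% of genes. These were Trp53 (0.52 in the lower- and -0.19 in the higher-numbered libraries), Cdkn1a (-0.55 and 0.19), Cdkn2a (-0.73 and 0.81), Ckap2 (0.38 and -0.18), Pmaip1 (-0.22 and 0.30) and Ddb2 (0.14 and -0.25). Without the pair at 28 h the same-sign count was 9, with Fas added, against 33.3% of genes, and the opposite-sign count was 6, against 6.34%. Under Apc mutation the sets had the same called sign for 28 members in Bmal1 wild-type and 30 in Bmal1-null organoids, against 55.9% and 69% of genes. They had opposite signs for Cdkn1a in Bmal1 wild-type organoids and for no member in Bmal1-null organoids, against 3.81% and 0.0983% of genes. The summed proliferation genes had a median of 1557 TPM in the lower- and 2761 TPM in the higher-numbered Apc-min libraries, and the endothelial genes 14.1 and 2.40 TPM. Their part in the set difference was not tested.

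**Figure D3:**
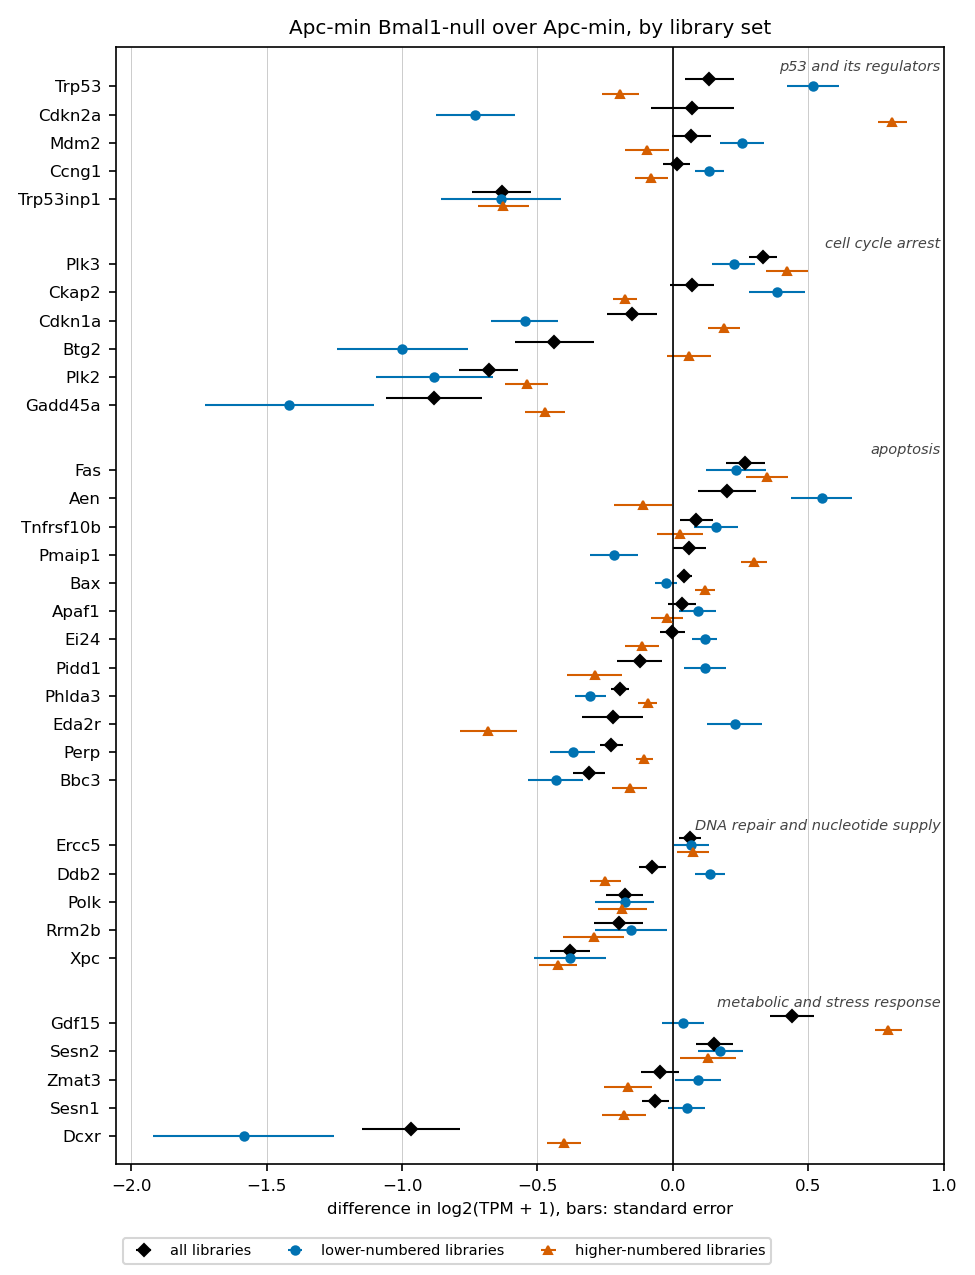
Difference in log2(TPM + 1) between Apc-min Bmal1-null and Apc-min organoids (x axis) for the p53 pathway genes (y axis), from all libraries, from the lower-numbered and from the higher-numbered libraries, with standard errors. Trp53inp1, Plk2, Plk3 and Gadd45a keep 1 side of 0 in all 3 fits, whereas Trp53, Cdkn1a, Cdkn2a, Ckap2, Pmaip1 and Ddb2 lie on opposite sides in the 2 sets.

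Whether the difference with Bmal1 genotype depended on Apc was tested by the interaction over 88 libraries. It was called for 12 members, 3 positive and 9 negative, against 18.1% and 29.6% of genes. The positive ones were Plk3, Fas and Gdf15, and the negative ones ran from -0.998 ± 0.18 for Dcxr (adjusted p = 5.41e-06) and -0.87 ± 0.18 for Gadd45a (adjusted p = 5.88e-05) to -0.17 ± 0.05 for Perp (adjusted p = 0.00314). For Trp53 it was 0.14 ± 0.10 (adjusted p = 0.233), for Mdm2 0.07 ± 0.11 (adjusted p = 0.644) and for Cdkn1a -0.08 ± 0.10 (adjusted p = 0.555), which turned to 0.01 with median-of-ratios scaling. These values combined opposite ones: in the lower- and higher-numbered libraries Trp53 was at 0.58 and -0.25, Mdm2 at 0.37 and -0.20, and Cdkn1a at -0.50 and 0.30. Of the called members, Gdf15 was at 0.01 and 1.01, Btg2 at -1.02 and -0.04 and Phlda3 at -0.42 and -0.08 in the same sets. Without the pair at 28 h 3 members were positive and 10 negative, with Sesn1 added at -0.19 (adjusted p = 0.029). The share of all genes in that fit is not given. In Apc-min organoids, 8 targets outside the members were higher with Bmal1 loss and 9 lower of 29, near the shares of all genes (24.6% and 35.7%). Of 20 caspase and BCL2 family genes 3 were higher and 8 lower, among them the BH3-only genes Bik (-1.56) and Bmf (-1.35).

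Cell type markers also differed with Bmal1 loss in Apc-min organoids. Of 18 proliferation genes, 12 were called higher and none lower, with a median of 0.33. That rise was not shared by the library sets, here with the pair at 28 h included. The median of the summed proliferation genes went from 1557 to 2937 TPM with Bmal1 loss in the lower-numbered set. In the higher-numbered set it was 2761 and then 2717 TPM, so the sum did not rise there. The summed stem cell genes moved in opposite directions, from 95.5 to 121 TPM (lower-numbered) and from 222.5 to 118 TPM (higher-numbered). Among 3 tested secretory and enterocyte genes, Fabp2 (2.92) and Alpi (1.70), both of enterocytes, were higher and Lyz1 (-0.44) was lower. The 7 epithelial genes had 3 higher calls and 1 lower, with a median of 0.08. The stem cell gene Lgr5 (-1.35), the differentiation keratin Krt20 (-1.36, the epithelial gene called lower), Vim (-1.53), Lyz2 (-2.95) and Cdh5 (-1.27) were lower. Several of these exceed the largest difference of a member, and their part in the differences of the members was not tested.

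Over the sampled day, more p53 pathway genes had a called slope in Apc-min organoids than in each other genotype, and the same held over all genes. A linear slope, in log2(TPM + 1) per day, was called upward for 11 members and downward for 1 in Apc-min organoids, against 22.2% and 9.01% of genes. These counts and the Apc-min slopes below include the Apc-min library at 28 h that went against its label. In control organoids 1 was called, Plk3 at -0.52 ± 0.12 (adjusted p = 0.0184), against 0.971% of genes upward and 1.23% downward, and leaving out either the first or the last time point ended that call. None was called in Bmal1-null organoids, against 3.43% and 3.28% of genes, where 10 had an unadjusted p under 0.05 by limma. In Apc-min Bmal1-null organoids Sesn1 rose at 0.53 ± 0.15 per day and Perp (-0.43 ± 0.07) and Phlda3 (-0.28 ± 0.07) fell, against 5.62% and 2.82% of genes. Without the pair at 28 h 4 rose and 2 fell there, counts not set against the share of all genes in that fit.

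The rising members in Apc-min organoids included arrest, apoptosis and repair targets. Btg2 had a median of 50.99 TPM (44.6 to 105) in the 6 libraries from 24 to 30 h and 122 TPM (78.1 to 150) in the 8 libraries from 40 to 46 h, leaving out the pair at 28 h, and its slope over all libraries was 1.47 ± 0.34 per day (adjusted p = 0.00357). Dcxr rose from a median of 192 TPM (160 to 448) to 416 TPM (225 to 674), with a slope of 1.40 ± 0.43. Trp53inp1 rose from 45.8 TPM (41.7 to 59.6) to 69.5 TPM (57.6 to 89.6), with a slope of 1.02 ± 0.21, and its ranges overlapped at their edges. The 6 early libraries held 2 lower- and 4 higher-numbered ones, and the 8 late libraries 4 of each, so the mix of sets also differed with time.

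With the library set as a term, the Apc-min slopes of Btg2, Dcxr and Trp53inp1 were 1.33, 1.24 and 1.02. Cdkn1a rose from a median of 313 TPM (288 to 470) to 478 TPM (343 to 606), with a slope of 0.70 ± 0.24 (adjusted p = 0.0304) and 0.59 with the set as a term. Pmaip1 rose at 0.68 ± 0.18, Bbc3 at 0.50 ± 0.12, Polk at 0.47 ± 0.13, Xpc at 0.46 ± 0.14, Sesn1 at 0.46 ± 0.10, Sesn2 at 0.43 ± 0.14 and Ercc5 at 0.34 ± 0.10 per day. Ckap2 fell at -0.59 ± 0.22 per day, from a median of 119 to 86.6 TPM. Trp53 and Mdm2 were not called in any genotype. Of 18 proliferation genes, 5 fell in Apc-min organoids and none was called in the other genotypes. Their part in the drift of the p53 pathway genes was not tested. In the lower-numbered libraries alone 3 members rose and 1 fell, and in the higher-numbered ones 11 and 3. These counts are not set against the share of all genes in the same fits.

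**Figure D4:**
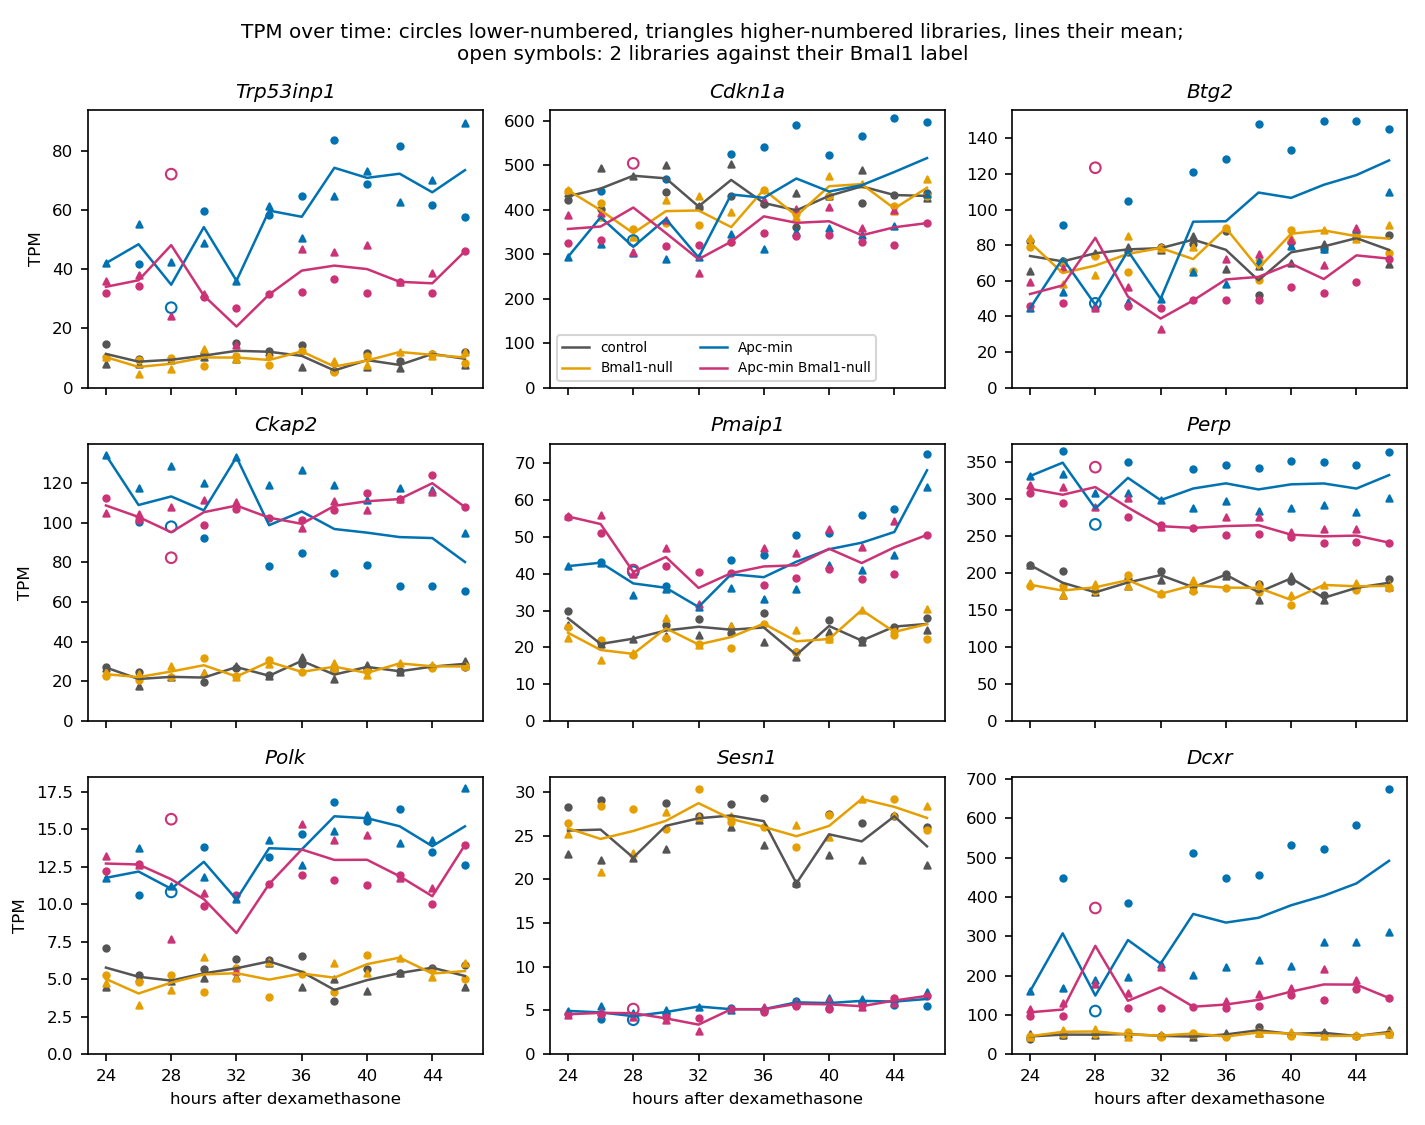
TPM (y axis, from 0, a separate scale in each panel) of 9 p53 pathway genes against hours after dexamethasone (x axis) in the 4 genotypes. Circles are lower- and triangles higher-numbered libraries, lines join the means, and open symbols mark the 2 libraries at 28 h against their Bmal1 label. The Apc-min line climbs for Trp53inp1, Btg2 and Dcxr, whose late medians were 69.5, 122 and 416 TPM, while the control and Bmal1-null lines stay near level.

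Slopes differed among the 4 genotypes for 13 of 33 members, against 24.8% of genes, by an F test over 88 libraries with adjusted p under 0.05. All 6 arrest members were among them, as were 3 of 12 apoptosis members (Bbc3, Pmaip1 and Perp), none of 5 repair members, Trp53inp1 of the regulators, and Sesn1, Sesn2 and Dcxr of the metabolic members. The gap between the steepest and the lowest slope was 1.44 per day for Dcxr (adjusted p = 0.0223), 1.41 for Btg2 (adjusted p = 0.00673) and 0.76 for Cdkn1a (adjusted p = 0.0303). Cdkn1a slopes were -0.06 in control, 0.16 in Bmal1-null, 0.70 in Apc-min organoids, and 0.03 when both genes were mutant, and the first and last turned sign with median-of-ratios scaling. Without the pair at 28 h 11 members were called. The lower-numbered libraries alone gave 6 and the higher-numbered ones 3. The counts without the pair and by set are not set against all genes in those fits.

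A rhythm with a 24 h period was tested by a cosine fit, and since 1 cycle was sampled, a drift and a rhythm can share the same shape. No member was called in control organoids, against 0.0557% of genes, or in Bmal1-null organoids, against 0.0%. At an unadjusted p under 0.05 there were 4 and 2 members, by limma. In Apc-min organoids 7 members were called, against 12% of genes: Trp53inp1 (amplitude 0.41, fitted peak at 40.75 h), Pmaip1 (0.32, at 44.25 h), Bbc3, Polk, Ercc5, Sesn1 and Sesn2, the last 5 with amplitudes of 0.15 to 0.20. All but Pmaip1 had peaks between 39.21 and 41.59 h, and all 7 were also called for a rising slope. Leaving out the pair at 28 h left 2 members, Trp53inp1 and Pmaip1, and each library set alone gave none. With the library set as a term 16 were called, against 4179 of 12625 genes. In Apc-min Bmal1-null organoids Perp (amplitude 0.14, peak at 27.46 h) and Sesn1 (0.24, at 42.43 h) were called, against 2.59% of genes, and without the pair 6 members were. Rhythm counts without the pair and in each set are not set against the share of all genes in those fits.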

How the data were processed

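The authors deposited TPM per gene and library, made with STAR 2.5 and RSEM 1.3.0 on GRCm38 per the submitters' processing notes, and an alignment table with read counts and the percent of reads in each class, per the file headers. The kit was directional per the labels' protocols. TPM is relative to each library's total, so a change in a few abundant genes moves all others. From these values, limma 3.58.1 in R 4.3.3 was run on log2(TPM + 1) with a mean-variance trend, for genes that averaged 1 TPM or above in some genotype of the comparison, and p-values were adjusted over all genes (Benjamini-Hochberg). Level comparisons used 44 libraries with time point as a factor, and the interaction and slope differences used 88. Rhythms were cosine fits with a 24 h period. The code was tested on simulated data. P-values measure the spread between libraries of 2 lines per genotype, not between animals. Same-numbered library sets are not stated to be lines, and the set was a term in an alternative. Alternatives changed the pseudocount, filter, scaling, length term, libraries and time points. A further 88 columns of quantile-normalized values could not be mapped to libraries and were not used here.

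Named members were Trp53, Cdkn1a and Mdm2, those called with a log2 difference of 0.58 or more, and the largest of each role; others were named after their values were seen. The members and lists were chosen with earlier results of these data known.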

Additional observations from a re-analysis of the deposited data

Results flagged for a closer look

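The interaction of Apc and Bmal1 genotype, the log2 difference with Bmal1 loss in Apc-min organoids minus that in Apc wild-type organoids, was called for 12 of 33 tested members, 9 negative and 3 positive, against 29.6% and 18.1% of all genes. It was negative for Dcxr (-0.998), Gadd45a (-0.87), Trp53inp1 (-0.64), Plk2 (-0.62), Btg2 (-0.51), Xpc (-0.41), Bbc3 (-0.28), Phlda3 (-0.24) and Perp (-0.17), and positive for Gdf15 (0.52), Plk3 (0.43) and Fas (0.29). Gdf15 was at 0.01 in the lower- and 1.01 in the higher-numbered libraries, Btg2 at -1.02 and -0.04, and Phlda3 at -0.42 and -0.08.

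Slopes over time differed among the genotypes for 13 of 33, against 24.8% of all genes. The gap between the highest and lowest slope, in log2(TPM + 1) per day, was 1.44 for Dcxr, 1.41 for Btg2, 1.34 for Gadd45a, 1.31 for Trp53inp1, 0.99 for Plk2, 0.86 for Ckap2, 0.81 for Pmaip1, 0.80 for Sesn2, 0.76 for Cdkn1a, 0.69 for Plk3, 0.64 for Sesn1, 0.63 for Bbc3 and 0.42 for Perp. Gadd45a, Plk2, Plk3 and Perp were among the 13 although their own slope was not called in Apc-min organoids.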

How the results depend on the processing

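Of 2314 single-member values over 119 member comparisons under the alternatives, 2193 kept their direction and side of the threshold, 77 lost the call, 17 gained it and 27 changed sign. These values cover the level comparisons, the interaction and the linear slopes, but not rhythms or slope differences. They are of members called in the main fit and, in some comparisons, of Trp53, Cdkn1a, Mdm2, Btg2 and Ddb2 when not called. Many come from leaving out each time point in turn. In the pairing check, the fit with library set as a replicate block called 16 rhythmic members in Apc-min organoids in place of 7, 2 falling slopes there in place of 1, 1 rising slope in control and 1 falling slope in Bmal1-null organoids in place of 0; with the block, Apc mutation again gave 28 higher and 3 lower members in Bmal1 wild-type organoids.

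Sign changes were as follows. Apc mutation in Bmal1 wild-type organoids gave Cdkn1a 0.36 in the lower-numbered libraries, Btg2 -0.028 (median-of-ratios scaling) and -0.24 in the higher-numbered libraries, Ddb2 -0.0046, -0.017 and -0.033 with that scaling, the length covariate and the lower-numbered libraries, and Xpc -0.003 with the length covariate. In Bmal1-null organoids Ddb2 was -0.025 with that scaling and -0.10 with the length covariate. Bmal1 loss in Apc wild-type organoids gave Trp53 0.034 and Mdm2 0.052 in the higher-numbered libraries, Mdm2 0.0028 with the length covariate, and, leaving out each time point in turn, -0.027 to 0.011 for Trp53 and -0.035 to 0.030 for Mdm2 (above 0 without 34 h for both and, at 0.0038, without 26 h for Mdm2). Bmal1 loss in Apc-min organoids gave Trp53 -0.19, Mdm2 -0.10, Cdkn1a 0.19 and Btg2 0.059 in the higher-numbered libraries. The interaction was -0.25 for Trp53, -0.20 for Mdm2 and 0.30 for Cdkn1a in those libraries, and 0.013 for Cdkn1a with median-of-ratios scaling. The Cdkn1a slope with that scaling and in the lower-numbered libraries was 0.047 and 0.034 in control and -0.066 and -0.078 in Apc-min Bmal1-null organoids.

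Counts of members moved over 1.5 times as follows, here and in the next paragraph, without the share of all genes in the same fits. Bmal1 loss in Apc wild-type organoids gave 2 higher members with the length covariate, and 1 higher and 3 lower in the lower-numbered libraries. In Apc-min organoids the 3 higher members became 11 (median-of-ratios), 7 (length), 0 (set means), 8 (lower-numbered), 9 (lower-numbered without the pair at 28 h), 7 (higher-numbered) and 3 to 5 with a time point left out (5 without 32 h), and the 10 lower ones 16 (length) and 0 (set means). The 3 positive interactions became 11, 8 and 5 (median-of-ratios, lower- and higher-numbered), and the 9 negative ones 16 (length). Slope differences went from 13 to 8 with no filter, 6 and 3 (lower- and higher-numbered).

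Rhythms in Apc-min organoids went from 7 to 4 with no filter, 4 (median-of-ratios), 2 without the pair, 15 (length) and 0 in either set, and in Apc-min Bmal1-null organoids from 2 to 0 (no filter), 1 (5 TPM filter), 6 (without the pair), 9 (length), 1 without 24 h or 46 h, and 0 in either set. Slopes in control organoids became 2 rising (length), and 0 falling without 24 h, without 46 h or in either set. In Bmal1-null organoids they became 1 rising (median-of-ratios) or 5 rising and 6 falling (length). In Apc-min organoids the lower-numbered libraries left 3 of 11 rising, and falling ones became 0 (no filter, without 24 h or without 46 h) and 3 (length, higher-numbered). In Apc-min Bmal1-null organoids rising slopes became 4 (median-of-ratios, without the pair), 6 (length) and 0 (without 46 h, either set), and falling ones 4 (median-of-ratios), 5 (length), 1 (without 46 h, lower-numbered) and 0 (higher-numbered). The cause was not tested. The alternative on quantile-normalized values was not run. The single-set fits of the interaction, slopes and rhythms, and the lower-numbered fit without the pair, were chosen after seeing the data. Members under about 5 TPM, such as Rrm2b and Fas, are the least precise.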
